A study of Mus musculus with 6 samples.

Results

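A set of 10 genes that regulate the self-renewal of mouse spermatogonial stem cells was examined for DNA methylation, namely Etv5, Bcl6b, Lhx1, Id4, Nanos2, Zbtb16, Sall4, Foxo1, Taf4b, and Pou3f1. The sites described are the CpG sites for which the deposited table names one of these genes as the closest gene, at any distance. A CpG site was used when at least 10 reads covered it in all 6 samples, which left 577 of the 1590 sites listed for the 10 genes, among 681804 such sites in the whole table. Of these 577 sites, 319 lay within 1000 bp of the transcription start site (TSS) that the table gives and are called promoter sites, and 258 lay farther away and are called distant sites. The promoter sites compare with 390568 in all, and the distant sites with 291236 in all.

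Spermatogonial stem cells renew themselves or differentiate toward sperm, and glial cell line-derived neurotrophic factor (GDNF) from Sertoli cells is the best known signal for renewal. Etv5, an ETS factor, Bcl6b, a zinc finger repressor, and Lhx1 and Pou3f1, homeobox and POU factors, respond to GDNF in cultured spermatogonia and help to maintain them. Id4, an inhibitor of basic helix-loop-helix factors, marks the cells with most stem cell activity, and Nanos2, an RNA-binding protein, keeps them from differentiating. Zbtb16 (also called PLZF) and Sall4 are zinc finger factors of undifferentiated spermatogonia, Foxo1 is a forkhead factor that relays growth factor signals, and Taf4b is a germ cell subunit of the general transcription factor TFIID. Promoters that are rich in CpG sites usually lack methylation whether or not the gene is active, whereas CpG sites in sparse sequence are usually methylated.

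Genomic DNA came from germline stem (GS) cells, which are cultured mouse spermatogonia with stem cell activity, of the genotype DBA/Tg14(act-EGFP-OsbY01), an EGFP transgene driven by an actin promoter. The 3 Space samples were frozen for 6 months on the International Space Station and the 3 Ground samples for 6 months on Earth, and both were grown after thawing. The series describes the 3 samples of a group as biological replicates, the cells were grown on mouse embryonic fibroblasts, and no animal age is stated in the sources used here. DNA methylation was measured by reduced representation bisulfite sequencing (RRBS), in which bisulfite converts unmethylated cytosines only, so that each read of a site counts as methylated or unmethylated. The comparison asks whether the frozen stay in space left a difference in methylation. Reads summed over all sites ranged from 28535973 to 33743845 per sample, and those over the 577 sites from 18548 to 21671, with a median coverage of 28 to 33 reads per site. Within and between groups, every pair of samples had a chi-square of 1.30 to 1.44 per degree of freedom, more than independent reads would give. Whether differences between replicates or reads copied from the same molecule account for this was not tested. A level is the percent of reads that were methylated. In such bulk DNA, a mixture of methylated and unmethylated cells and a partial methylation of every cell cannot be told apart.

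The labelled cell type was looked at through 12 germ cell genes whose promoters are methylated in somatic cells. Of these, 9 had enough promoter sites, and all 9 were under 10% methylated, from 0.740% to 7.03%. The highest was Brdt, a bromodomain protein of spermatogenic cells, with 8.39% ± 0.851 (SD, n = 3) in Space and 5.67% ± 2.29 (SD, n = 3) in Ground samples. Promoters of 5 of 12 fibroblast genes could be measured, and these were also under 10%, from 1.24% to 3.02%. Of the promoters of all genes with enough sites, 95.3% were under 10% too, so that neither list separates the cell types. How much DNA came from the fibroblast layer was not tested.

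Upstream sequence of 3 of the genes is shown because the letters show which CpG sites were read (Etv5 and Id4) and where there are none (Nanos2). RefSeq promoters were found by symbol for 5 of the 10 genes (Etv5, Lhx1, Id4, Nanos2, and Foxo1), and they use the build GRCm38.p6, whereas the table uses mm39 per the submitters' notes. Positions were therefore matched only by the spacing of the CpG sites, and each capital CG below is a site that met the minimum of 10 reads. The Etv5 promoter was placed with 30 of 30 listed sites on a CG, against 9 of 30 for the second best placement, and Id4 with 31 of 31, against 12 of 38. Bases within annotated exons of these genes are not shown.
Etv5 first promoter, chr16:22439720-22439820, minus strand, upstream of the first exon: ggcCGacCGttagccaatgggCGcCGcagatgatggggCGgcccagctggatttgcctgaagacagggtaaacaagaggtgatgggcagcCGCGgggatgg
Etv5 second promoter, chr16:22438369-22438618, minus strand, inside the gene but outside its exons: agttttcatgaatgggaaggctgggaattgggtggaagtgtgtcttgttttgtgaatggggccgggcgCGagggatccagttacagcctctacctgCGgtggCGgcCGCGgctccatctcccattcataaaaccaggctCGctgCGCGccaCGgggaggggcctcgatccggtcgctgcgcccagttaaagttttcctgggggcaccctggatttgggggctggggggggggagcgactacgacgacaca
Id4 promoter, chr13:48260866-48261115, plus strand, upstream of the first exon: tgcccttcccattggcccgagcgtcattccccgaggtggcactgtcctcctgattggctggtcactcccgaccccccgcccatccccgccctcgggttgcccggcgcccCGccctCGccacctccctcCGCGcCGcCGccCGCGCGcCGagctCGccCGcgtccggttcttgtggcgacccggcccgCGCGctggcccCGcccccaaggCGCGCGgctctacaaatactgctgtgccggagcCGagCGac
Nanos2 promoter, chr7:18987274-18987399, plus strand, upstream of the first exon: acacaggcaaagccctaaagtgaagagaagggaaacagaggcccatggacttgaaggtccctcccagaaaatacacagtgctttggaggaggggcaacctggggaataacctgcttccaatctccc

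The 7 capital sites of the Etv5 first promoter had levels of 0.833% to 4.17%, the 9 capital sites of its second promoter 0.758% to 2.15%, and the 20 capital sites of Id4 0.725% to 3.55%. The second Etv5 promoter was placed with 9 of 9 sites on a CG. Nanos2 stands apart in sequence, since its RefSeq promoter of 300 bases holds 0 CG, as do 5.43% of the 32851 RefSeq promoters, whose median is 7. The same length held 37 and 19 CG for the Etv5 promoters, 39 for Id4, 31 for Lhx1, and 31 for Foxo1.

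All promoters that could be measured were almost free of methylation in both Space and Ground GS cells. A promoter was measured when at least 3 of its sites were covered, which held for 8 of the 10 genes, and their mean levels over the 6 samples lay between 1.30% for Foxo1 and 2.69% for Pou3f1. All 319 promoter sites had a mean under 10%, with a maximum of 5.90%, and 98.7% of the promoter sites of all genes did so too. The median promoter level was 1.86% for the 8 genes and 1.82% for all 14373 genes measured.

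Among the GDNF-responsive genes, the Etv5 promoter (ENSMUSG00000013089; mm39 chromosome 16, TSS at 22258468, minus strand; 40 sites) had levels of 2.77%, 1.66%, and 1.55% in Space samples 1 to 3 and 1.30%, 2.32%, and 1.45% in Ground samples 1 to 3. The Bcl6b promoter (ENSMUSG00000000317; chromosome 11, TSS at 70120623, minus strand; 22 sites) had 6.96%, 1.60%, and 0.145% in Space and 2.84%, 1.94%, and 1.74% in Ground samples. Its Space samples thus spread on both sides of all Ground samples, and without Space sample 1 its difference between the groups was -1.30 percentage points in place of 0.730. The Lhx1 promoter (ENSMUSG00000018698; chromosome 11, TSS at 84416360, minus strand; 21 sites) had 3.76%, 0.606%, and 1.20% in Space and 2.34%, 0.524%, and 0.220% in Ground samples. The Pou3f1 promoter (ENSMUSG00000090125; chromosome 4, TSS at 124550599, plus strand; 6 sites with 179 to 238 reads per sample) had 5.91%, 0.840%, and 0% in Space and 2.63%, 5.03%, and 1.75% in Ground samples. In each of these 4 genes, the groups overlapped and the highest level was that of Space sample 1.

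The promoters of the other regulators were as low. Id4 (ENSMUSG00000021379; chromosome 13, TSS at 48414703, plus strand; 48 sites) had a mean of 1.74% ± 0.610 (SD, n = 3) in Space and 2.02% ± 0.799 (SD, n = 3) in Ground samples. For Zbtb16 (ENSMUSG00000066687; chromosome 9, TSS at 48747521, minus strand; 54 sites), the means were 1.92% ± 0.581 and 1.95% ± 0.476 (SD, n = 3 each). Foxo1 (ENSMUSG00000044167; chromosome 3, TSS at 52175756, plus strand; 57 sites) had 1.39% ± 0.367 in Space and 1.21% ± 0.834 in Ground samples (SD, n = 3 each). Taf4b (ENSMUSG00000054321; chromosome 18, TSS at 14916301, plus strand) had the most promoter sites, 70, and means of 1.68% ± 0.819 in Space and 1.44% ± 0.303 in Ground samples (SD, n = 3 each). Taf4b had no distant site with enough reads, so that its 70 sites all describe the promoter.

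For none of the 8 promoters did the difference between Space and Ground GS cells pass the test against the spread between replicates. The differences (Space minus Ground) ran from -0.888 percentage points for Pou3f1 to 0.830 for Lhx1. Reads were compared by a quasi-binomial test, with Benjamini-Hochberg adjustment over all 14373 genes and limma for moderation of the spread. In it, 0 of 8 promoters and 0% of all genes passed an adjusted p of 0.05. The smallest p over the 8 genes was that of Lhx1, unadjusted p = 0.320 and adjusted p = 0.952. At an unadjusted p under 0.05, 0 of 8 promoters and 5.31% of all passed. In 0 of 8 promoters did the groups not overlap, against 9.55% of all promoters. Space sample 1 was the highest of the 6 samples at 5 of the 8 promoters, against 23.5% of all promoters under 10%, and Ground sample 1 at 2 of 8, against 24.8%.

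**Figure D1:**
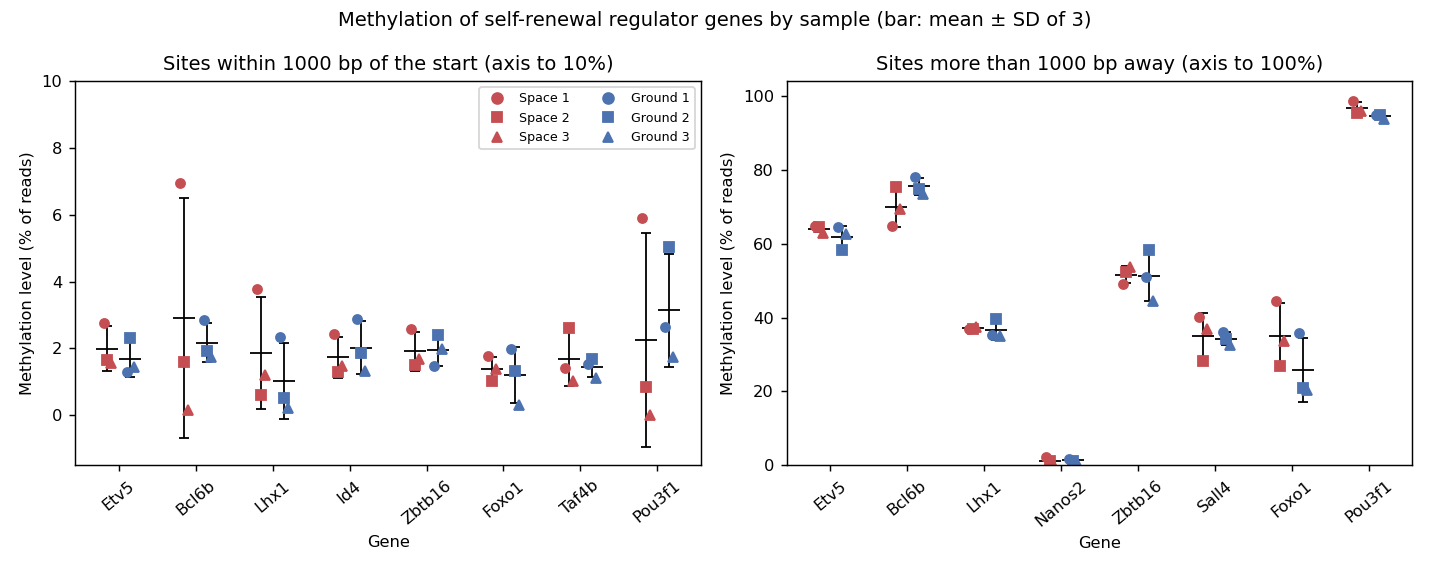
Methylation level (percent of reads) of each gene in the 3 Space and 3 Ground samples, at promoter sites (left, axis to 10%) and distant sites (right, axis to 100%), with the mean and SD of each group in black. Promoters sit under 7% in every sample, whereas distant levels spread from 1.31% for Nanos2 to 95.6% for Pou3f1, and the groups overlap except at the distant sites of Pou3f1.

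Nanos2 and Sall4 were the genes without a measured promoter. For Nanos2 (ENSMUSG00000051965; chromosome 7, TSS at 18721324, plus strand), the table lists 4 sites within 1000 bp of the TSS at any coverage, and none had 10 reads in all samples. Its 3 sites at 416, 421, and 447 bp downstream of the TSS were covered in all 6 samples by 5 to 15 reads each and were largely methylated, with 88.2%, 75.0%, and 91.2% of 68 reads per site. Summed over the 3 sites, the levels were 100%, 66.7%, and 100% in Space samples 1 to 3 and 88.1%, 90.0%, and 77.8% in Ground samples 1 to 3. Space samples thus held both the highest levels and the lowest. The site at 421 bp had the lowest single values, 30.8% of 13 reads in Space sample 2 and 60% of 15 reads in Ground sample 3. Within a sample the 3 sites had the same number of reads and can share them, so that an interval is given for 1 site. At the site nearest to the TSS, the 95% Wilson intervals ran from 56.6% to 100%, 66.7% to 98.6%, and 74.1% to 100% in Space and from 52.4% to 92.4%, 49.0% to 94.3%, and 62.1% to 96.3% in Ground samples. They cover counting error only, since reads without molecular identifiers may be copies of 1 molecule. The summed levels of these 3 sites lie on the other side of the scale from the 8 measured promoters, and they rest on 5 to 15 reads per site and sample. They do not describe the Nanos2 sequence upstream of the TSS.

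Sall4 (ENSMUSG00000027547; chromosome 2, TSS at 168609862, minus strand) had 1 promoter site with enough reads, 642 bp downstream of the TSS, at 0%, 10.9%, and 0% in Space and 0%, 0%, and 4.26% in Ground samples. Its 18 further promoter sites below the coverage minimum had levels of 0% to 0.667% per sample, from 108 to 300 reads. The few Sall4 reads near the TSS were thus almost all unmethylated.

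Distant sites were far more varied than promoters. Of the 258 distant sites, 129 were under 10% methylated, 85 were over 80%, and 44 lay between, whereas for all distant sites the shares were 48.8% under 10% and 38.9% over 80%. A total of 8 genes had at least 3 distant sites, with mean levels of 95.6% for Pou3f1, 72.7% for Bcl6b, 62.9% for Etv5, 51.5% for Zbtb16, 36.8% for Lhx1, 34.7% for Sall4, 30.4% for Foxo1, and 1.31% for Nanos2. Their median was 44.1%, and that of all 17207 genes with distant sites was 66.1%.

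**Figure D2:**
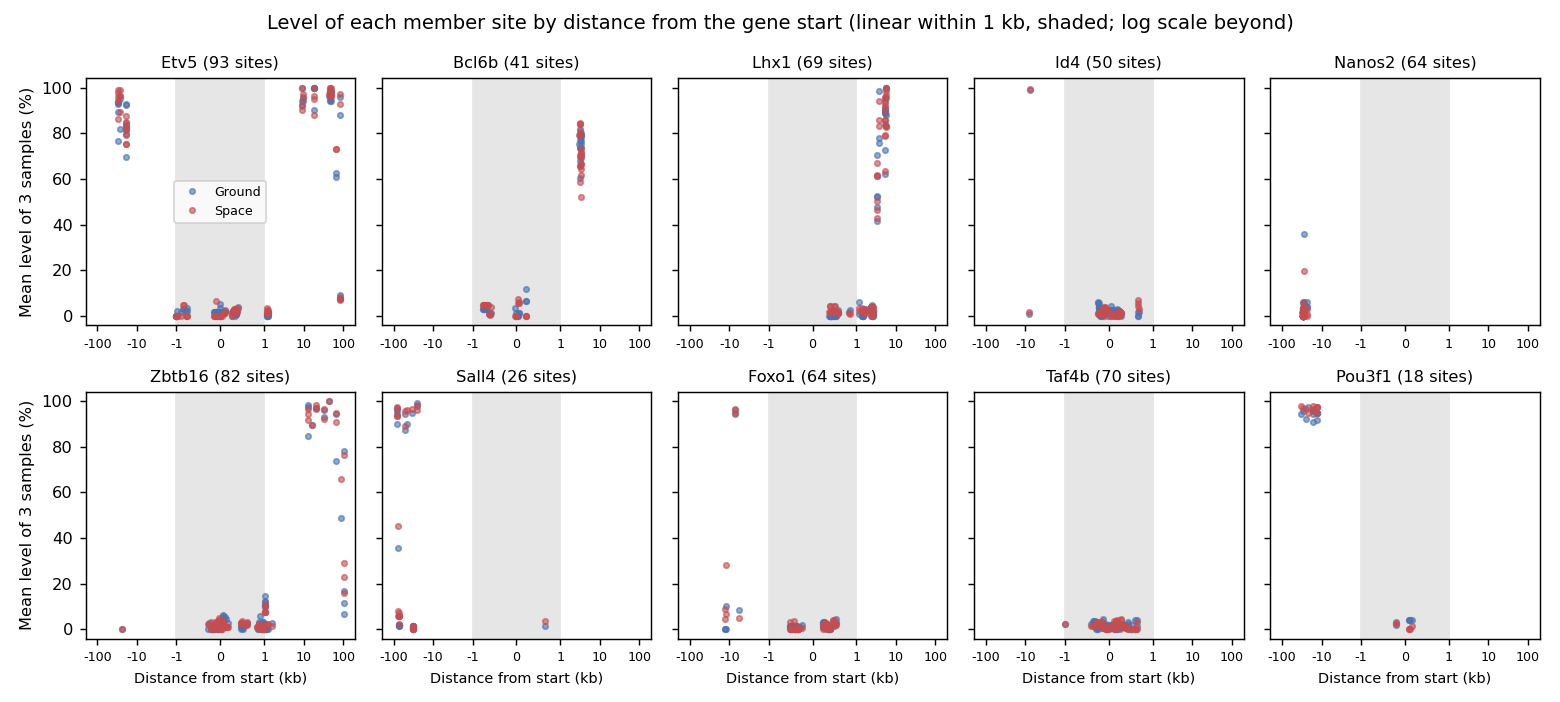
Mean level of 3 Space (red) and 3 Ground (blue) samples at each of the 577 sites, by distance from the TSS in kb, negative upstream; the axis is linear within 1 kb (shaded) and logarithmic beyond. Sites within 1 kb lie near 0 in every gene that has them, and distant sites fall mostly near 0 or near 100%, except in Bcl6b and part of Lhx1 and Zbtb16.

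In the 6 genes with at least 3 sites of each kind, distant levels exceeded promoter levels in every sample. The mean excess over the 6 samples was 92.9 percentage points ± 2.11 (SD, n = 6) for Pou3f1, 70.1 ± 6.36 for Bcl6b, 61.1 ± 2.60 for Etv5, 49.5 ± 4.62 for Zbtb16, 35.4 ± 2.35 for Lhx1, and 29.1 ± 8.96 for Foxo1. The limma test of arcsine-transformed differences within samples gave adjusted p values from 2.01e-11 for Pou3f1 to 4.79e-08 for Foxo1. All 6 genes passed, as did 88.6% of 8422 genes in that direction and 2.92% in the other, so that the 6 genes are not set apart by it. The size of the excess depends on where the promoter ends, and for Foxo1 it was 12.8 points with a promoter of 500 bp. That setting also counts low sites of other genes as distant, such as the 12 sites of Bcl6b region 4. These lie 572 to 758 bp upstream and had a mean of 2.48%, against 72.7% in Bcl6b region 1. When Space was compared with Ground in the same differences, 0 of 6 genes and 0% of all passed an adjusted p of 0.05. Pou3f1 had an unadjusted p of 0.0470, with an adjusted p of 0.971 by limma and an excess of 94.3 points ± 1.68 (SD, n = 3) in Space and 91.4 ± 1.34 (SD, n = 3) in Ground samples. An unadjusted p under 0.05 was found in 4.75% of all genes.

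Mean levels by distance from the TSS were set beside those of all genes. At 1001 to 2000 bp from the TSS, the 34 sites of 3 member genes had mean levels of 3.08% in Space and 2.79% in Ground samples, against 11.2% in both for all genes. At 2001 to 5000 bp, the 41 sites of 2 genes (Bcl6b and Lhx1) had 48.1% and 49.3%, against 29.7% and 29.6% for all genes. At 5001 to 20000 bp, the 53 sites of 6 genes had 81.4% and 80.8%, against 45.8% and 45.6%, and beyond 20000 bp the 130 sites of 5 genes had 33.8% and 32.4%, against 57.9% and 57.7%. Of these 130 sites, 64 were those of Nanos2. These are descriptions of sites that share genes and fragments, and no test was made of them.

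Promoter and distant sites were next grouped into regions, runs of 3 or more sites no more than 100 bp apart, numbered within each gene along the chromosome. The 10 genes held 43 regions. All 13 regions of promoter sites and both regions that held sites of either kind were under 10% methylated. Of the 28 regions of distant sites, 12 were under 10%, 13 were over 80%, and 3 lay between. Neighbouring sites in a region are often read on the same fragment, and they then carry the same reads. In Sall4 region 2, 74359 to 74479 bp upstream, the 4 sites each had 18.2% in Space sample 1, where each was covered by 11 reads.

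Lhx1, the gene of a LIM homeobox factor, held a gradient along the gene. Going downstream from the TSS, 4 regions between 379 and 2677 bp had mean levels of 1.44%, 1.57%, 2.39%, and 1.63%. Lhx1 region 3, at 3242 to 3314 bp (chromosome 11, 84413046 to 84413118; 6 sites), had 56.9%, 55.2%, and 58.3% in Space and 52.5%, 60.6%, and 52.5% in Ground samples. Lhx1 region 2 at 3615 to 3707 bp rose further to 86.2%, 89.7%, and 87.3% in Space and 85.0%, 86.2%, and 81.0% in Ground samples, and region 1 at 5229 to 5602 bp had a mean of 86.9%. The step lay between the same regions in all 6 samples. The Space minus Ground difference of region 3 was 1.62 percentage points, with an adjusted p of 0.986 by the quasi-binomial test. It was 0.268 without Ground sample 1, 0.278 without Ground sample 3, 0.872 without Space sample 3, 4.32 without Ground sample 2, and 4.07 with a minimum of 5 reads.

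**Figure D3:**
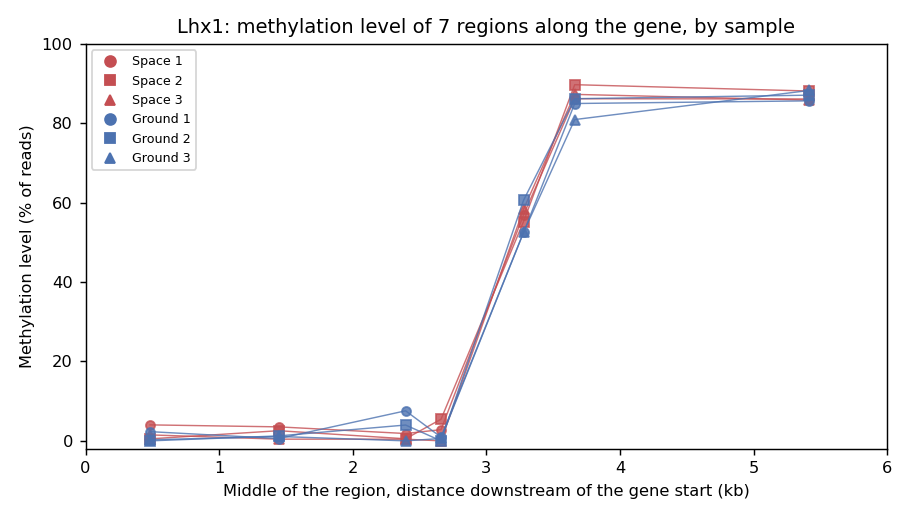
Methylation level (percent of reads) of the 7 Lhx1 regions in each of the 6 samples, by distance of the middle of the region downstream of the TSS in kb. All 6 lines stay under 8% up to 2677 bp and rise to between 52% and 61% at 3242 to 3314 bp and to 81% or more beyond.

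Bcl6b was the gene with intermediate levels throughout its distant sites. Its 19 distant sites form region 1, at 3052 to 3393 bp downstream of the TSS (chromosome 11, 70117230 to 70117571), and 18 of them lay between 10% and 80%. The levels of the region were 64.8%, 75.2%, and 69.3% in Space and 78.1%, 74.9%, and 73.6% in Ground samples. A single Space sample lay within the range of the Ground samples, and the mean difference of -5.73 percentage points had an unadjusted p of 0.0905 and an adjusted p of 0.874. Without Space sample 1 it was -3.24 points. In the test of distant sites by gene, the same reads gave Bcl6b the smallest p of the 8 genes, unadjusted p = 0.0676 and adjusted p = 0.915. Bcl6b region 2 at 214 to 226 bp, within the promoter, had 0% in all 3 Space samples and 5.13%, 20%, and 0% in Ground samples. Each of its 3 sites had 0 methylated reads of 17, 16, and 19 in Space samples 1 to 3, which allows levels of up to 17.6%, 18.8%, and 15.8% by counting error only, the sites lying close enough to share reads. The difference was -2.56 points without Ground sample 2, in place of -8.38.

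Etv5 held the most highly methylated regions. Its regions 3, 2, and 4, at 47082 to 47192, 50496 to 50584, and 17904 to 17928 bp downstream of the TSS, had mean levels of 97.4%, 97.4%, and 95.8%. They rest on 48 to 96 reads per sample, and Pou3f1 regions 1 and 2 were close, with 95.5% and 95.3%. Upstream of Etv5, its regions 10, 11, and 12 at 18570 to 29951 bp from the TSS had 82.4%, 93.2%, and 90.4%. Low levels were also found downstream of the TSS. Region 6, at 1169 to 1252 bp (chromosome 16, 22257216 to 22257299), holds the 9 capital sites of the second promoter printed above and had 5.16%, 0.631%, and 0.535% in Space and 0.307%, 0.463%, and 0.326% in Ground samples. Region 1, 80901 to 80922 bp downstream, had a mean of 7.81%.

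Zbtb16 had an unmethylated promoter whose low levels reached past 1000 bp. Its region 3, at 844 to 1245 bp, had 26 sites and a mean of 2.62%. Within it, the 6 sites at 1026 to 1070 bp had mean levels of 9.10% to 12.2%. Farther downstream, region 2 at 13001 to 13087 bp had 94.5% in Space and 94.4% in Ground samples, and region 1 at 105942 to 106049 bp (chromosome 9, 48641472 to 48641579) had 34.9%, 13.3%, and 19.6% in Space and 4.76%, 25.6%, and 4.55% in Ground samples. Region 1 had the largest difference of the 43 regions, 10.97 percentage points, with overlapping groups, an unadjusted p of 0.0995, and an adjusted p of 0.879. Without Space sample 1 it was 4.82 points, and without Ground sample 2 it was 18.0. A single site 24073 bp upstream had 0 methylated reads in all 6 samples, each with 28 to 47 reads, which allows levels of up to 6.38% to 10.7% by counting error only.

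Foxo1 and Id4 had few distant sites. Foxo1 region 1, at 12355 to 12461 bp upstream (chromosome 3, 52163295 to 52163401; 4 sites), had 25%, 8.93%, and 2.27% in Space and 3.57%, 0%, and 4.17% in Ground samples. Its difference of 9.49 percentage points (unadjusted p = 0.0491, adjusted p = 0.865) became 3.02 without Space sample 1. Of the other 3 distant Foxo1 sites, those at 7225 and 7272 bp upstream had 94.7% and 96.2% and that at 5551 bp upstream had 6.65%, so that the distant level of the gene averages unlike sites. The 2 distant sites of Id4 lie 7918 and 7847 bp upstream of the TSS. The farther one had a mean of 1.38% and the nearer one 99.1%, each with 27 to 40 reads per sample. In each of the 6 samples, the nearer site had at least 97.1% and the farther one at most 2.94%.

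The distant sites of Sall4 fell into high and low groups as well. Of its 25 distant sites, 14 were under 10% and 10 were over 80%. Region 3 at 79832 to 79877 bp upstream had a mean of 94.7%, and region 1 at 31379 to 31449 bp upstream had 0.882%. The remaining site, 77430 bp upstream, had 44.4%, 45.8%, and 45.2% in Space and 28.6%, 35.7%, and 42.1% in Ground samples.

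Among the 8 genes measured at distant sites, those of Nanos2 were the lowest. All 64 lay 23461 to 29760 bp upstream of the TSS, 63 of them were under 10%, and the mean of the gene was 1.31%, a level that 1.08% of all genes with distant sites had or fell below. Levels were 2.29%, 1.10%, and 0.356% in Space and 1.72%, 1.21%, and 1.21% in Ground samples. Most of these sites lie in Nanos2 regions 1 and 2, with 14 and 44 sites at 28922 to 29760 bp upstream and means of 1.29% and 0.779%. The neighbouring protein-coding genes of Nanos2 in RefSeq (GRCm38.p6) are Nova2 and Mypop, and to which gene these sites relate is not known from a closest TSS. Low distant levels were not particular to Nanos2. Its paralogue Nanos3 had a mean of 1.93% over 68 distant sites, and 8 of the 19 paralogues measured there were under 10%. Nanos2 region 3, at 27701 to 27781 bp upstream, had 9.80%, 2.99%, and 3.95% in Space and 11.3%, 7.14%, and 16.4% in Ground samples, a difference of -6.04 percentage points (adjusted p = 0.905). Thus the 3 sites at 416 to 447 bp downstream of the Nanos2 TSS were highly methylated when summed, on few reads, and the distant sites assigned to it were not. For these sites, the order was the reverse of that in the 6 genes with at least 3 sites of each kind.

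Pou3f1 was the only gene of the 8 whose distant levels did not overlap between the groups. Its 12 distant sites, 12698 to 33115 bp upstream, were all over 80% methylated and had 98.5%, 95.3%, and 95.9% in Space and 94.9%, 94.9%, and 93.8% in Ground samples. The difference was 2.06 percentage points, with an unadjusted p of 0.119 and an adjusted p of 0.925 by the quasi-binomial test. Of all genes, 9.73% did not overlap, and 5.86% did so with Space higher, so that 1 of 8 is near this background. Without Space sample 1 the difference was 1.11 points. Over the 8 genes, the distant differences ran from -5.73 points for Bcl6b to 9.27 for Foxo1, and Foxo1 had 35.1% ± 8.93 in Space and 25.8% ± 8.76 in Ground samples (SD, n = 3 each), with an adjusted p of 0.935. The Foxo1 difference was 4.49 to 14.3 points without 1 replicate, lowest without Space sample 1 and highest without Ground sample 1, and 1.84 with a promoter of 500 bp. None of the 8 and 0% of the 17207 genes passed an adjusted p of 0.05, and at an unadjusted p under 0.05 it was 0 of 8 and 5.47% of all.

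By region, 0 of the 43 regions and 0% of 49221 regions passed the same test. An unadjusted p under 0.05 was found in 3 regions (Bcl6b region 2, Foxo1 region 1, and Id4 region 2) and in 5.64% of all, and the adjusted p of these 3 was 0.865. The groups did not overlap in 3 of 43 regions, all with Space higher, against 9.23% of all in either direction and 5.11% with Space higher. These 3, named after their values were seen, were Id4 region 2, Etv5 region 3, and Etv5 region 6. Id4 region 2, at 671 to 695 bp, has 6 sites, 4 of which have Id4 as the closest gene, and had 4.33%, 3.10%, and 4.95% in Space and 0.612%, 2.82%, and 1.57% in Ground samples (unadjusted p = 0.0378). Etv5 region 3 had 100%, 100%, and 97.6% in Space and 96.1%, 96.3%, and 94.6% in Ground samples. In Etv5 region 6 the difference of 1.74 percentage points became 0.218 without Space sample 1, although its Space samples still lay above the Ground samples.

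**Figure D4:**
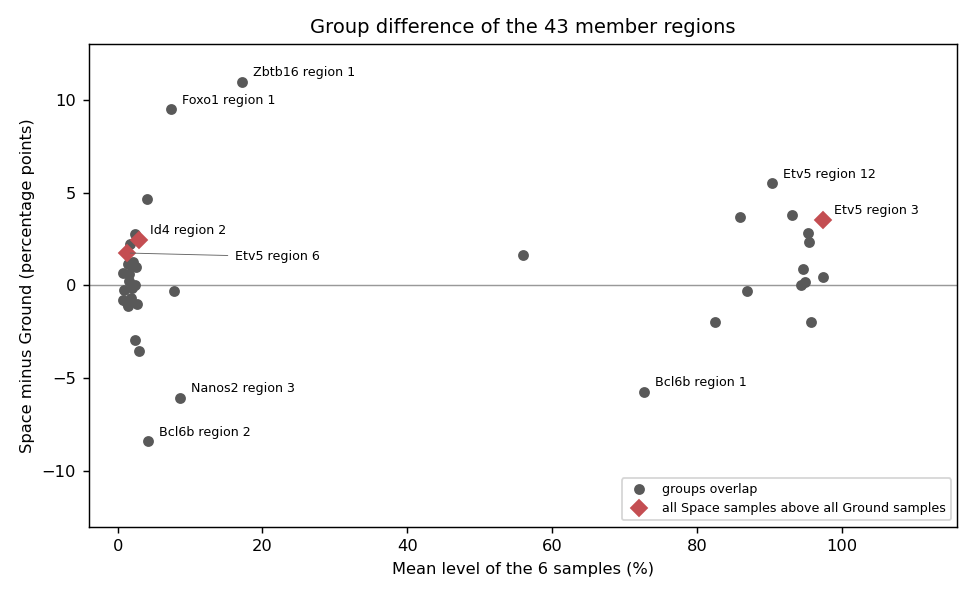
Space minus Ground difference (percentage points) of the 43 regions by their mean level over the 6 samples (percent); diamonds mark the 3 regions in which all Space samples lie above all Ground samples. The differences run from -8.38 to 10.97 percentage points and none passed the test.

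By site, 94 of the 577 sites had a mean level of 5% to 95% and were tested, and 0 of them and 0% of the 92042 sites tested passed an adjusted p of 0.05. An unadjusted p under 0.05 was found in 7 sites and in 5.61% of all. The groups did not overlap in 9 of the 94, 6 with Space higher and 3 with Space lower, against 9.07% of all in either direction, 4.94% with Space higher, and 4.13% with Space lower. A single site of the 577, against 0.196% of all common sites, differed by more than 20 percentage points. It lies 64283 bp downstream of the Zbtb16 TSS (chromosome 9, position 48683238) and had 100%, 84.6%, and 100% in Space and 73.3%, 64.3%, and 84.2% in Ground samples, from 13 to 28 reads each. The difference of 20.9 points had an unadjusted p of 0.00401 and an adjusted p of 0.792.

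The 4 sites next in order of p were 2 of Bcl6b and 2 of Zbtb16. The Bcl6b site at 3278 bp had 57.5%, 67.4%, and 60.7% in Space and 87.2%, 77.3%, and 70.3% in Ground samples, so that all Space samples lay below all Ground samples (adjusted p = 0.818). The Bcl6b site at 226 bp had 0% in the Space samples and 15.4%, 20%, and 0% in Ground samples. The Zbtb16 sites at 105942 and 105975 bp belong to its region 1 and differed by 17.6 and 16.3 percentage points with overlapping groups. Without Space sample 1 these were 8.30 and 6.30 points. Without Space sample 2 the first was 27.1, and without Space sample 3 the other was 24.8. The adjusted p values of these 4 sites were 0.807 to 0.821.

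The sites of the 10 genes below the coverage minimum were summed by gene into promoter and distant sites, and 19 sums had reads in all 6 samples. All 3 Space samples lay above all 3 Ground samples in 2 of them, the distant sites of Etv5 and Pou3f1, against 4.59% of such sums over all genes.

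Other regulators and relatives of the 10 genes were also low at promoters, as are most genes, since 95.3% of all measured promoters were under 10%. Of 23 other transcription regulators of spermatogonia, 21 had a measured promoter, all under 10% (0.996% to 2.81%), and 0 passed the test. The smallest p was that of Max, the dimer partner of Myc, with 2.79% ± 0.131 in Space and 1.92% ± 1.06 in Ground samples (SD, n = 3 each; adjusted p = 0.929), and the highest level was that of Sohlh2, a helix-loop-helix factor of differentiating spermatogonia, with 2.81%. Of 28 paralogues of the 10 genes, 19 promoters were measured, all under 10%, and 0 passed. Etv1, an ETS factor close to Etv5, had the smallest p, with 0.661% ± 0.634 in Space and 2.86% ± 1.95 in Ground samples (SD, n = 3 each; unadjusted p = 0.0440, adjusted p = 0.916), and Zbtb7b the highest level, 3.11%. In the germ cell and fibroblast lists, 0 of 9 and 0 of 5 promoters passed, and the smallest p were those of Sycp1 (adjusted p = 0.929), a synaptonemal complex protein, and Twist1 (adjusted p = 0.912). The fibroblast list had its highest promoter level in Pdgfrb, a growth factor receptor, with 3.02%.

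Distant sites of these lists also gave no call. Of 18 other regulators measured, Mycn, a Myc family factor, had the smallest p, with 3.43% ± 0.393 in Space and 2.21% ± 0.299 in Ground samples (SD, n = 3 each; unadjusted p = 0.00698, adjusted p = 0.897), and Stat3 the highest level, 97.0%. Of 19 paralogues, Id3, a relative of Id4, had the smallest p, with 5.20% ± 0.217 in Space and 6.69% ± 0.446 in Ground samples (SD, n = 3 each; adjusted p = 0.897), and Bcl6, a relative of Bcl6b, the highest level, 88.2%. The median distant level was 12.96% for the other regulators and 10.3% for the paralogues, against 44.1% for the 8 genes. It was 44.7% for the germ cell genes, 58.9% for the fibroblast genes, and 66.1% for all genes with distant sites. Of 4 germ cell genes, Tex101 had the smallest p (adjusted p = 0.904) and Tdrd1 the highest level, 98.4%. Of 11 fibroblast genes, Twist1 had the smallest p (adjusted p = 0.897) and Pdgfrb the highest level, 96.0%.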

How the data were processed

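RRBS was performed in 3 Space and 3 Ground samples, grouped by their titles. The authors deposited a single table for all samples that gives for each CpG site a count of covering reads, the methylated percent, and the gene with the closest TSS. The submitters' processing notes name Bismark 0.24.2, Trim Galore, methylKit, and the build mm39. Read filters, removal of duplicate reads, and the merging of strands are not given in the sources used here, and lost or merged reads would change coverage and levels. Positions are as the table gives them. Exons and introns of mm39 were not used here.

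The product of coverage and percent was within 0.000266 of a whole number of methylated reads and was rounded. Sites that every sample covered with 10 reads or more were summed into promoters (within 1000 bp of a TSS), distant sites (farther), both with at least 3 sites per gene, and regions (at least 3 sites, gaps up to 100 bp). Sites with a mean of 5% to 95% were tested singly. Reads were compared by a quasi-binomial test with the dispersion moderated by squeezeVar of limma 3.58.1 (R 4.3.3), Benjamini-Hochberg adjusted over all units, threshold 0.05. The test was checked on simulated data. In a first simulation, whose spread between replicates grew with coverage, it made many false calls at single sites, those inspected having very high coverage. The test was kept, and a second simulation with the dispersion unrelated to coverage, as the test assumes, was made after that failure and is the one in which false calls were few. The p values of single sites with very high coverage may thus be too small. The methods of the study give a general test of means and none that is specific to RRBS reads. Distant minus promoter levels were compared by limma on arcsine square roots. With 3 against 3 samples, an exact permutation test of a single value cannot go below p = 0.1, and none is given. The p values weigh a difference against the spread between these samples, moderated over all units. They cover no variation beyond these samples.

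The 10 genes and all lists were chosen with earlier results of these data known. Named were all 10 genes, their regions with a mean of 20% to 80%, the 3 highest regions, the 5 regions with the largest difference, the 5 sites with the smallest p, and, in each other list, the genes with the smallest p and the highest level. Others were named after their values were seen. The alternatives tried were minimums of 5 and 20 reads, promoters of 500 or 2000 bp, gaps of 50 bp, edgeR 4.0.16 (quasi-likelihood) applied to both kinds of counts, limma on log2-transformed ratios after adding 2 reads, equal weights of sites, the replicate number as a block, and leaving out each replicate.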

Additional observations from a re-analysis of the deposited data

Results flagged for a closer look

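Sites below the coverage minimum, which the tests above do not use, had higher levels in all 3 Space than in all 3 Ground samples in 2 of 19 sums by gene, against 4.59% of such sums over all genes. The 100 distant sites of Etv5 with fewer than 10 reads in at least 1 sample had pooled levels of 49.4%, 46.5%, and 46.8% in Space and 46.0%, 43.1%, and 41.2% in Ground samples, a difference of 4.15 percentage points, from 346 to 482 reads per sample. The 63 distant sites of Pou3f1 below the minimum had 87.5%, 90.8%, and 87.3% in Space and 83.6%, 70.5%, and 87.2% in Ground samples, a difference of 8.05 percentage points, from 214 to 346 reads per sample, and 3.09 points without Ground sample 2. The sites with reads are not the same in each sample, and neither difference was tested.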

How the results depend on the processing

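No Space against Ground call was made for promoters, distant sites, regions, or distant minus promoter levels under any alternative run, edgeR and limma included, and the lowest adjusted p of a named difference was 0.520. The smallest adjusted p over all genes was 0.0768 in edgeR on distant sites. At single sites the count was 0 except without a replicate: it was 1 without Space replicate 2, 3 without Space replicate 3, and 5 without Ground replicate 1, thus 0 to 5. Distant sites exceeded or fell below promoters in 7704 genes, in 7687 with the replicate block, in 7630 to 7651 without a replicate, and in 4009 with a minimum of 20 reads, where fewer genes could be tested (4793 in place of 8422). Same-numbered samples deviated together with correlations of 0.0438, 0.0220, and 0.00988. Space sample 3 was the only sample that correlated better with another number, at 0.0146 with Ground sample 2. The sample descriptions also carry consecutive numbers within each same-numbered pair. A pairing of the samples is thus possible, and the main tests do not use it. The replicate block changed no call. A minimum of 20 reads gave no value for the promoter of Pou3f1, the distant sites of Foxo1, the distant minus promoter levels of both, and some of the named regions and single sites, and gaps of 50 bp gave none for Zbtb16 region 1.

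Differences given in percentage points changed sign in 17 of 251 recalculations under other settings and in 27 of 264 that left out a replicate, and the cause was not tested. These totals include the excess of distant over promoter levels within samples, which was large and never changed sign. The share for Space minus Ground differences alone is thus higher. At promoters, Etv5 had -0.0632 and Zbtb16 0.0421 with a minimum of 5 reads, Lhx1 -0.582 and Zbtb16 0.00659 with a minimum of 20 reads, and Zbtb16 0.284 with a promoter of 500 bp. With equal weights of sites, the promoter differences were -0.417 for Etv5, -0.0652 for Foxo1, and -0.00989 for Taf4b. At distant sites, Lhx1 had -0.370 and Zbtb16 -0.122 with 5 reads, and Zbtb16 -5.65 and Sall4 -1.51 with 20 reads. For distant minus promoter levels, Zbtb16 had -0.164 with 5 reads and -5.66 with 20 reads, Lhx1 had 1.21 with 20 reads and 1.62 with a promoter of 2000 bp, and Etv5 had -0.0746 with a promoter of 2000 bp.

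Without 1 replicate, promoter differences ranged from -0.0844 to 0.616 for Etv5, -1.30 to 2.11 for Bcl6b, -0.123 to 1.49 for Lhx1, -0.630 to 0.156 for Id4, -0.365 to 0.196 for Zbtb16, -0.262 to 0.564 for Foxo1, -0.213 to 0.570 for Taf4b, and -2.72 to 0.237 for Pou3f1. Distant differences ranged from -0.405 to 1.99 for Lhx1, -0.654 to 0.312 for Nanos2, -3.03 to 3.89 for Zbtb16, and -1.61 to 4.28 for Sall4. Etv5 region 2 ranged from -0.747 to 1.88, and distant minus promoter levels from -1.75 to 1.41 for Lhx1 and -3.01 to 3.70 for Zbtb16. Few reads limit the smaller units, such as the 6 promoter sites of Pou3f1 and the 3 near the Nanos2 TSS.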
